A study of Danio rerio with 32 samples.

Results

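The comparison described here asks whether PFNA changed gene expression differently in the eye and in the brain of zebrafish kept in constant darkness. PFNA is perfluorononanoic acid, a persistent fluorinated surfactant. Wildtype embryos received 0 or 12.5 µM PFNA in 0.1% DMSO between 0.75 and 120 h after fertilization, so the control animals also carried the solvent. They were held in 24 h of darkness (DD), and eyes and brains were then dissected for RNA sequencing. The comparison used 15 of the 32 libraries: 4 DMSO and 4 PFNA libraries from dark eyes, and 4 DMSO and 3 PFNA libraries from dark brains. A further 16 libraries came from embryos kept on a cycle of 14 h light and 10 h dark (LD), and they served as a second set of samples for the same comparison. The labels do not say whether libraries came from separate clutches or how many animals each one pooled, so p-values measure only the spread between these libraries.

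For each gene the PFNA effect was the mean log2(FPKM + 1) of PFNA libraries minus that of DMSO libraries in 1 tissue. FPKM is fragments per kilobase of gene, scaled for library size. The quantity reported, called the eye-brain difference, was the effect in dark eyes minus the effect in dark brains. A positive value means that the gene rose more, or fell less, in the eye. It was computed for 14908 of 32520 genes, those that reached 1 FPKM in 4 or more of the 8 eye columns and 4 or more of the 7 brain columns. A gene was called when its p-value, adjusted over all tested genes by the Benjamini-Hochberg method, was under 0.05. Changes are given on that log2 scale with their standard error, and genes close to 1 FPKM look less changed on it than by the ratio of their FPKM.

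The eye of a zebrafish at this age holds a working retina with rods, cones, interneurons and Müller glia, together with lens and pigment epithelium. The brain shares many neuronal and glial programmes with the retina but lacks most phototransduction genes outside its pineal and deep photoreceptors. Cells of both tissues can answer stress through AP-1, a dimer of Jun, Fos and Atf proteins that switches on early response genes. They can also answer cytokines through the JAK-STAT pathway, in which STAT proteins induce the Cish and Socs inhibitors that shut the pathway down again.

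The dark libraries held 8.83 to 14.24 M (mega) fragments, and 1 FPKM in a gene of 1 kb stood for 8.45 to 15.5 fragments. Rhodopsin (rho), the rod visual pigment, read 1161 to 1930 FPKM in the 8 dark eye libraries and 0.126 to 7.74 FPKM in the 7 dark brain libraries. The lens crystallin crygm2d1 read 463 to 1759 FPKM in eyes and was listed at 0 in all 7 brains. Myelin basic protein (mbpa) read 2.17 to 11.95 FPKM in eyes and 52.3 to 100.9 FPKM in brains. The library labelled brain DD PFNA replicate 3 went against its label, with rho at 1283 FPKM, crygm2d1 at 833 FPKM and mbpa at 3.77 FPKM, and it was left out of the comparison. With that library kept in the brain group, 1 gene in place of 15 was called. Eye DD PFNA replicate 4 also stood apart, with 10.01% of its fragments on mitochondrial genes against 5.07 to 8.03% in the other 7 dark eye libraries. Its lens crystallin genes summed to 75660 FPKM, against 30850 to 44480 FPKM in those 7, and its blood markers to 88.0 FPKM, against 33.9 to 35.1 FPKM in the other PFNA eyes and 48.6 to 82.5 FPKM in DMSO eyes. The 15 libraries are bulk tissue, so a change in the number of cells of a type and a change in RNA per cell cannot be told apart.

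Few genes were called for an eye effect of PFNA that differed from the brain effect. Genes called in both tissues moved the same way with 1 exception, slc25a55a. Of 14908 genes, 15 were called for the eye-brain difference, which is 0.101%. In the same test 1196 genes had an unadjusted p under 0.05, so the small count of calls does not show equal effects elsewhere. The eye effect was the higher of the pair for 12 genes (0.0805%) and the lower for 3 (0.0201%). That lean depended on the processing: over the settings other than leave-one-out, 47.3% to 100% of called differences were higher in the eye. The 100% includes the setting that kept brain DD PFNA replicate 3, which rests on 1 call. The eye and brain effects came from the same fit of the dark libraries, so each call rests on a spread pooled over both tissues. For the effect in dark eyes 1265 genes were called (8.49%), with 802 higher (5.38%) and 463 lower (3.11%) after PFNA. In dark brains 419 were called (2.81%), with 328 higher (2.2%) and 91 lower (0.61%). Both tissues called 268 genes, which is 21.2% of the eye calls and 64.0% of the brain calls, and 267 of these had the same direction. Over all tested genes 63.9% had the same sign in both tissues, and genes called in both are chosen for large effects. Leaving out 1 library at a time moved the eye count between 766 and 1641 and the brain count between 124 and 864. None of the 222 genes that rose in both tissues, or of the 45 that fell in both, was called for the difference. Of the 15 called genes, 11 rose in the eye and were not called in the brain, 3 fell in the eye and were not called in the brain, and slc25a55a rose in the eye and fell in the brain. A further 568 genes rose and 415 fell in the eye without a call in the brain, and these were not called for the difference, so the eye call alone did not show a difference between tissues.

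**Figure D1:**
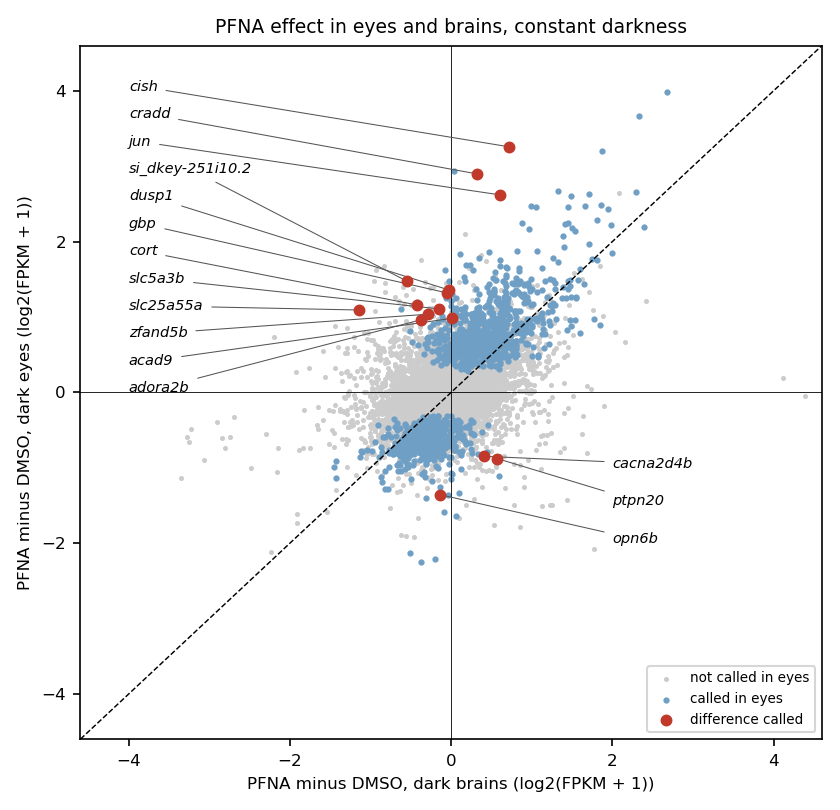
PFNA effect in dark brains (x axis) against PFNA effect in dark eyes (y axis), both as PFNA minus DMSO on the log2(FPKM + 1) scale, for 14908 genes. The dashed line marks equal effects. Blue points are those of the 1265 genes called in eyes that were not called for the difference. The 15 red points were called for the difference and also in eyes, and they lie away from that line, 12 above and 3 below.

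Leaving out 1 library at a time moved the count of 15 between 7 and 23. It was 7 without brain DD PFNA replicate 1 and also 7 without replicate 4 of that group. Dropping eye DD PFNA replicate 4 raised it to 23, with 13 of the 15 kept. The difference was called in every leave-one-out fit for 7 genes: cradd, cish, jun, cort, slc5a3b, cacna2d4b and si_dkey-251i10.2. All 15 kept their direction in every fit.

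Jun, cish and dusp1 belong to stress and cytokine signalling. Each rose in dark eyes, and its effect in dark brains was smaller and was not called. The gene jun (chromosome 20, 15552657 to 15554606, plus strand, in the coordinates of the deposited table, with its genome build not given in the sources used here) encodes the AP-1 subunit c-Jun. Its eye values were 9.42, 12.5, 11.9 and 10.3 FPKM with DMSO and 68.7, 71.3, 91.0 and 62.1 FPKM with PFNA. Its brain values were 13.78, 18.35, 20.03 and 16.85 FPKM with DMSO and 23.14, 29.52 and 27.11 FPKM with PFNA. The groups did not overlap in either tissue. Ratios of mean FPKM were 6.64 in the eye and 1.54 in the brain. The jun effect was 2.62 ± 0.14 in eyes and 0.60 ± 0.15 in brains (adjusted p = 0.0516), and the eye-brain difference was 2.02 ± 0.21 (95% interval 1.57 to 2.47, adjusted p = 0.00066). In DMSO libraries jun was lower in eyes than in brains, at 0.639 times the brain mean.

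The gene cish (chromosome 6, 41503854 to 41506749, plus strand) encodes a cytokine-induced SH2 protein that dampens STAT signalling. Its eye values were 6.84, 7.35, 7.76 and 7.39 FPKM with DMSO and 76.1, 67.9, 87.8 and 83.9 FPKM with PFNA. Its brain values were 3.75, 2.95, 2.52 and 2.01 FPKM with DMSO and 7.9, 4.54 and 3.79 FPKM with PFNA. All PFNA libraries lay above all DMSO libraries in both tissues, by a wide margin in the eye and a narrow one in the brain. Mean FPKM was 10.8 times higher in PFNA eyes and 1.93 times higher in PFNA brains. The cish effect was 3.26 ± 0.18 in eyes and 0.72 ± 0.20 in brains (adjusted p = 0.065), a difference of 2.54 ± 0.27 (95% interval 1.969 to 3.105, adjusted p = 0.00066).

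The phosphatase gene dusp1 (chromosome 14, 15760253 to 15763648, minus strand) encodes an early response enzyme that switches off MAP kinases. It read 16.2 to 25.2 FPKM in DMSO eyes and 47.2 to 60.5 FPKM in PFNA eyes, against 7.49 to 10.2 and 7.25 to 11.7 FPKM in the brains. The eye groups did not overlap and the brain groups did. The dusp1 difference was 1.39 ± 0.24 (95% interval 0.87 to 1.90, adjusted p = 0.0450), and the call held in 3 of 15 leave-one-out fits, in which the adjusted p reached 0.193.

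The largest difference belonged to cradd (chromosome 4, 18383253 to 18416566, minus strand). In mammals its product is a death domain adaptor that joins caspase-2 to the PIDD protein. Its eye values were 7.72, 4.49, 5.91 and 3.76 FPKM with DMSO and 39.1, 40.8, 48.1 and 57.9 FPKM with PFNA. Its brain values were 3.9, 4.83, 6.09 and 4.92 FPKM with DMSO and 5.64, 6.92 and 6.6 FPKM with PFNA. The 2 tissues started at similar levels, and the eye groups stood far apart while the brain groups overlapped. The cradd effect was 2.90 ± 0.19 in eyes and 0.32 ± 0.20 in brains (adjusted p = 0.474), a difference of 2.57 ± 0.27 (95% interval 1.99 to 3.16, adjusted p = 0.00066).

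Transporters and metabolic genes made up the next group. The gene slc25a55a (chromosome 6, 49095636 to 49107046, plus strand) encodes a member of the mitochondrial carrier family. Its eye values were 29.3, 39.2, 37.6 and 35.9 FPKM with DMSO and 75.1, 71.9, 81.7 and 77.1 FPKM with PFNA. Its brain values were 6.75, 9.74, 4.0 and 6.6 FPKM with DMSO and 2.17, 4.14 and 1.38 FPKM with PFNA. The eye groups did not overlap, and the brain groups met only where 1 PFNA library at 4.14 FPKM exceeded 1 DMSO library at 4.0 FPKM. The slc25a55a effect was 1.09 ± 0.23 in eyes (adjusted p = 0.00815) and -1.15 ± 0.25 in brains (adjusted p = 0.0209). Its difference was 2.24 ± 0.33 (95% interval 1.52 to 2.95, adjusted p = 0.0122), and the adjusted p rose to at most 0.0654 when brain DD PFNA replicate 1 or 4 was left out.

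The summed FPKM of 29 exocrine pancreas and gut markers fell in the same brain libraries. It was 551.6, 477.6, 375.2 and 72.9 FPKM in DMSO brains and 38.27, 27.07 and 43.67 FPKM in PFNA brains, against 94.6 to 438 and 98.4 to 372 FPKM in DMSO and PFNA eyes. Of these markers, 1 was at 0 in all dark libraries and 6 were under 1 FPKM in all dark brains. The part of carried-over tissue in the brain value of slc25a55a was not tested.

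The sodium and myo-inositol cotransporter gene slc5a3b (chromosome 9, 33134882 to 33136990, minus strand), which takes up a cellular osmolyte, read 11.2, 10.5, 9.71 and 8.41 FPKM in DMSO eyes and 22.1, 20.7, 26.1 and 21.4 FPKM in PFNA eyes. In brains it read 7.62, 7.0, 7.13 and 8.25 FPKM with DMSO and 5.91, 6.9 and 7.08 FPKM with PFNA. Its mean rose to 2.27 times the DMSO level in eyes, with groups that did not overlap, and the brain groups overlapped. Its effect was 1.11 ± 0.12 in eyes and -0.16 ± 0.13 in brains (adjusted p = 0.604), a difference of 1.26 ± 0.17 (95% interval 0.90 to 1.63, adjusted p = 0.00635). The gene acad9 (chromosome 11, 26685982 to 26701611, minus strand), whose mammalian product is an acyl-CoA dehydrogenase that also helps assemble respiratory complex I, moved from 11.9 to 13.2 FPKM in DMSO eyes to 22.9 to 31.8 FPKM in PFNA eyes. Its brain libraries covered 13.0 to 16.1 FPKM with DMSO and 13.0 to 15.9 FPKM with PFNA. The acad9 difference of 0.98 ± 0.17 (adjusted p = 0.0450) was the smallest of the 15 and was called in 2 of 15 leave-one-out fits, with an adjusted p of up to 0.194.

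Receptors, ligands and regulators came next, with eye gains and brain values that were level or lower. The neuropeptide gene cort (cortistatin, a relative of somatostatin; chromosome 23, 28731379 to 28732313, plus strand) read 4.01, 7.33, 6.57 and 5.19 FPKM in DMSO eyes and 14.8, 12.5, 12.5 and 15.7 FPKM in PFNA eyes. In brains, where DMSO levels were higher, it read 29.2, 26.86, 31.98 and 23.82 FPKM with DMSO and 20.05, 20.02 and 21.53 FPKM with PFNA. The groups did not overlap in either tissue and they moved in opposite directions. The cort effect was 1.16 ± 0.15 in eyes and -0.42 ± 0.16 in brains (adjusted p = 0.214), so the brain decrease was not called. Its difference was 1.58 ± 0.22 (95% interval 1.104 to 2.052, adjusted p = 0.00861). With replicate number added to the limma fit as a block, the cort difference was not called (adjusted p = 0.0513). The calls of dusp1, gbp, adora2b, acad9 and opn6b were also lost with that block.

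The adenosine receptor gene adora2b (chromosome 5, 62781626 to 62801879, minus strand) read 11.9 to 14.3 FPKM in DMSO eyes and 22.7 to 33.4 FPKM in PFNA eyes, against 2.75 to 3.9 and 1.86 to 3.03 FPKM in the brains. Its difference was 1.34 ± 0.21 (adjusted p = 0.0207), held in 9 of 15 leave-one-out fits, with an adjusted p of up to 0.0953. The gene gbp (chromosome 16, 40954481 to 40955839, plus strand), named for a protein that binds glycogen synthase kinase, read 25.4 to 42.6 FPKM in DMSO eyes and 64.6 to 98.8 FPKM in PFNA eyes. In brains gbp covered 22.1 to 28.9 FPKM with DMSO and 21.1 to 28.4 FPKM with PFNA. The gbp difference of 1.37 ± 0.24 (adjusted p = 0.0474) held in 2 of 15 leave-one-out fits, in which its adjusted p reached 0.194. The zinc finger gene zfand5b (chromosome 10, 15603082 to 15613302, plus strand), related to a mammalian stress-induced activator of the proteasome, read 53.8 to 75.6 FPKM in DMSO eyes and 122 to 167 FPKM in PFNA eyes. Its brain values were 39.2 to 52.2 FPKM with DMSO and 34.7 to 40.1 FPKM with PFNA, and its difference was 1.32 ± 0.19 (95% interval 0.91 to 1.73, adjusted p = 0.0116). Without brain DD PFNA replicate 1 or 4 the adjusted p of zfand5b rose to at most 0.0626.

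A gene known by a clone name, si_dkey-251i10.2 (chromosome 5, 67463027 to 67471375, minus strand), completed the 12. It fell outside the naming rule and was named after its values were seen. It read 4.84 to 6.85 FPKM in DMSO eyes and 15.5 to 20.3 FPKM in PFNA eyes, against 1.58 to 2.76 and 0.807 to 1.89 FPKM in brains, where it rested on 10 to 35 fragments a library. The si_dkey-251i10.2 difference was 2.01 ± 0.26 (adjusted p = 0.00467), and its call was lost in limma's voom test on recovered fragments.

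The 3 genes with a lower eye effect had a higher level in eyes than in brains, and all fell in the eye after PFNA. Mean FPKM in DMSO eyes was 17.8 times that in DMSO brains for cacna2d4b, 16.9 times for opn6b and 7.56 times for ptpn20. The gene cacna2d4b (chromosome 25, 19023737 to 19090628, minus strand) encodes an auxiliary subunit of voltage-gated calcium channels, whose mammalian form works at photoreceptor synapses. Its eye values were 45.1, 38.2, 41.6 and 40.9 FPKM with DMSO and 24.9, 24.4, 23.0 and 18.5 FPKM with PFNA. Its brain values were 2.68, 2.18, 2.0 and 2.45 FPKM with DMSO and 3.32, 3.58 and 3.32 FPKM with PFNA. The groups did not overlap in either tissue, and the eye was lower and the brain higher with PFNA. The cacna2d4b effect was -0.85 ± 0.12 in eyes and 0.41 ± 0.12 in brains (adjusted p = 0.102), a difference of -1.26 ± 0.17 (95% interval -1.62 to -0.90, adjusted p = 0.00635). The gene overlaps lrtm2b on the opposite strand in the deposited table, and the sources used here do not say whether counting used strand.

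The opsin gene opn6b (chromosome 17, 28760586 to 28770800, minus strand), a member of the light-sensing opsin family, read 31.8 to 40.9 FPKM in DMSO eyes and 11.1 to 17.1 FPKM in PFNA eyes. Brain levels were 1.61 to 2.62 FPKM with DMSO and 1.79 to 2.0 FPKM with PFNA. Its mean in PFNA eyes was 0.376 times that in DMSO eyes, and its difference was -1.22 ± 0.21 (95% interval -1.67 to -0.77, adjusted p = 0.0450). The call for opn6b held in 3 of 15 leave-one-out fits, with an adjusted p of up to 0.173. The phosphatase gene ptpn20 (chromosome 13, 31177934 to 31228552, plus strand) read 24.6 to 34.4 FPKM in DMSO eyes and 12.2 to 18.2 FPKM in PFNA eyes. In brains it read 3.28 to 5.01 FPKM with DMSO and 5.9 to 6.82 FPKM with PFNA, so groups did not overlap in either tissue and moved in opposite directions. Its difference was -1.45 ± 0.22 (95% interval -1.92 to -0.99, adjusted p = 0.0122), and it shares its position with 2 other annotated genes. The adjusted p of ptpn20 rose to at most 0.0654 without brain DD PFNA replicate 1 or 4.

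**Figure D2:**
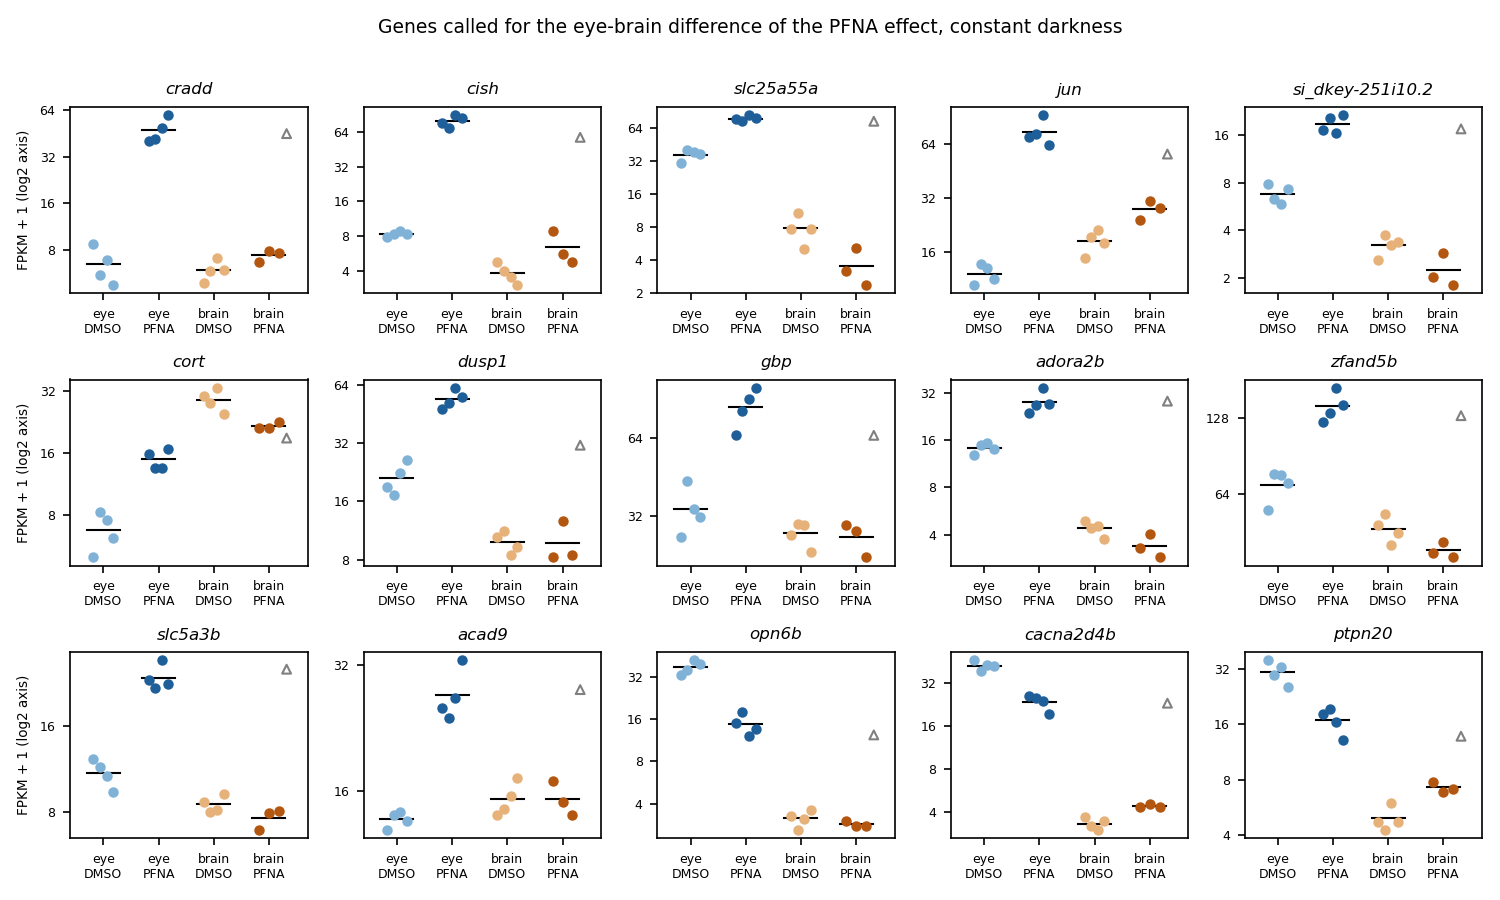
FPKM + 1 on a log2 axis for the 15 called genes in each dark library, by tissue and treatment, with group means as bars and the left-out library as an open triangle. For all 15 genes the DMSO and PFNA eye libraries do not overlap, while the brain groups are apart for 5.

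The dark eye groups did not overlap for 15 of the 15 genes, against 14.8% of all tested genes, and the dark brain groups did not overlap for 5 (cacna2d4b, ptpn20, jun, cish and cort), against 19.9% of all genes. The DMSO mean was higher in eyes than in brains for 12 of the 15 genes, against 47.8% of all genes. These 15 genes were called on the same dark libraries, and all were also called in eyes. Eye groups that stand apart follow largely from how the genes were chosen, so that share is not independent evidence. Low levels look less changed on the scale used, and its part in the count of higher DMSO eye levels was not tested. The 15 genes lay on 13 chromosomes. The left-out library read 44.0 FPKM for cradd and 22.2 FPKM for cacna2d4b, both within the range of the PFNA eyes, and 56.4 FPKM for cish, below that range and above all brains.

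The same comparison in the 16 LD libraries, which share no library with the dark set, gave 74 called genes (0.496%), 39 higher (0.262%) and 35 lower (0.235%) in the eye. All 15 genes called in darkness had the same sign under LD, against 62.3% of all genes. Each LD value was nearer to 0, and nothing is read from this, because the genes had been chosen for large differences in darkness. The LD difference was called for 4 of the 15, which is 26.7% of the dark calls and 5.41% of the LD calls. These were cradd, slc25a55a, zfand5b and ptpn20. The unadjusted p under LD was below 0.05 for 10 of the 15, against 13.0% of all genes. The LD count was 9 without brain LD PFNA replicate 2 and lay between 9 and 70 over the leave-one-out fits, with 49 or fewer in 13 of the 16.

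Cradd rose in eyes under both photoperiods. In LD eyes it read 2.87 to 6.56 FPKM with DMSO and 22.5 to 28.5 FPKM with PFNA, and in LD brains 3.07 to 3.83 and 2.9 to 4.4 FPKM. The LD difference for cradd was 2.31 ± 0.25 (adjusted p = 0.00107), and dark minus light it changed by 0.26 (95% interval -0.52 to 1.04, adjusted p = 0.999). The carrier gene slc25a55a again moved in opposite directions, from 31.33 to 45.04 FPKM up to 64.4 to 71.3 FPKM in LD eyes and from 7.88 to 12.4 FPKM down to 4.37 to 5.77 FPKM in LD brains. Its LD difference was 1.58 ± 0.18 (adjusted p = 0.00112), with LD groups that did not overlap in either tissue. For zfand5b the LD difference was 1.25 ± 0.23 (adjusted p = 0.0383), made of 0.38 in eyes and -0.87 in brains, where in darkness the larger share was the eye gain. For ptpn20 the LD difference was -0.83 ± 0.15 (adjusted p = 0.0308), with LD eyes at 44.1 to 48.1 FPKM with DMSO and 30.1 to 38.4 FPKM with PFNA.

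Among the 15 genes, the difference of cish changed most between photoperiods, and that change was not called. Its LD eye libraries read 12.1 to 22.6 FPKM with DMSO and 45.6 to 64.9 FPKM with PFNA, and its LD brains 1.66 to 3.61 and 5.85 to 9.32 FPKM. DMSO eyes were thus higher and PFNA eyes lower than in darkness, and PFNA brains were higher. The LD effect of cish was 1.75 ± 0.19 in eyes and 1.26 ± 0.19 in brains, and the LD difference was 0.49 ± 0.27 (adjusted p = 0.474). Dark minus light, the difference of cish changed by 2.05 (95% interval 1.24 to 2.85), with an adjusted p of 0.130. Because cish was chosen for a large dark difference, this change is not read as an effect of photoperiod. For slc5a3b the LD difference was 0.30 ± 0.17 (adjusted p = 0.475) and for cort 0.32 ± 0.34 (adjusted p = 0.752). Jun kept a difference of 1.48 ± 0.35 under LD (adjusted p = 0.0706), with LD eyes at 16.65 to 31.96 FPKM with DMSO and 44.57 to 99.23 FPKM with PFNA.

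Over all 31 libraries, limma called 0 genes (0%) for a change of the eye-brain difference between darkness and LD, with 594 genes at an unadjusted p under 0.05 and a smallest adjusted p of 0.125. The voom test on recovered fragments also called 0. The mean of the dark and LD differences, a comparison added after the data were seen, was called for 336 genes (2.25%), 182 higher (1.22%) and 154 lower (1.03%). A call in darkness and none under LD therefore did not show that the 2 photoperiods differed.

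**Figure D3:**
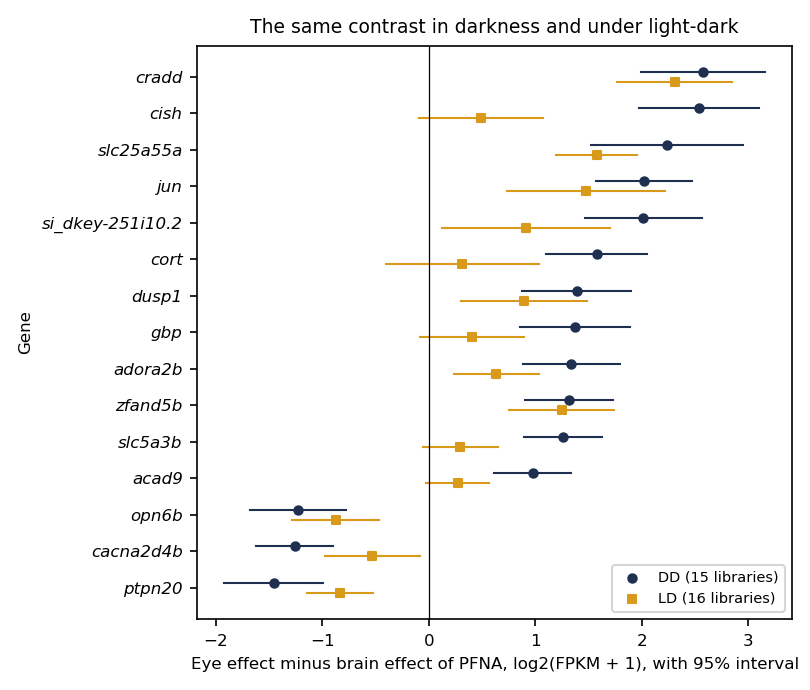
Eye effect minus brain effect of PFNA on the log2(FPKM + 1) scale (x axis) for the 15 genes called in darkness, with 95% intervals, in 15 DD libraries (circles) and 16 LD libraries (squares). Every square lies on the same side of 0 as its circle and nearer to 0, and cish moves from 2.54 to 0.49; the genes were chosen on the circles.

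Several of the strongest PFNA responses in darkness occurred in both tissues and were not called for the difference, which does not show that the effects were equal. The stress factor gene atf3, an AP-1 partner, rose by 3.98 ± 0.19 in eyes and 2.67 ± 0.20 in brains, which were ratios of 18 and 7.63 in mean FPKM. Its difference of 1.31 (95% interval 0.72 to 1.89) had an adjusted p of 0.129, and under LD it was 1.42 ± 0.28 with an adjusted p of 0.0441. The dark difference of atf3 was called in the fit of all 31 libraries. The STAT inhibitor socs3b rose by 2.47 and 1.66, a difference of 0.81 (95% interval 0.00 to 1.61, adjusted p = 0.619). The transcription factor stat3 itself rose by 1.96 and 1.71, a difference of 0.25 (95% interval -0.28 to 0.77). The interval for stat3 leaves room for the eye effect to be larger by 0.77, so equal effects were not shown.

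Light-responsive genes rose in dark eyes, and most of those described here also rose in dark brains. The clock repressor per2 rose by 0.97 in eyes and 1.04 in brains, with a difference of -0.07 (95% interval -0.70 to 0.55) whose sign changed without eye DD PFNA replicate 4. The cryptochrome cry-dash rose by 1.45 and 0.95, a difference of 0.50 (95% interval 0.16 to 0.84, adjusted p = 0.399). The DNA repair gene xpc rose by 0.61 in eyes, and its brain effect of 0.48 was not called (adjusted p = 0.0759). Among cholesterol genes, the synthesis enzyme msmo1 rose by 1.498 and 1.230, a difference of 0.27 (95% interval -0.40 to 0.94). The LDL receptor gene ldlra rose by 1.4 in eyes and 1.39 in brains, a difference of 0.01 (95% interval -0.73 to 0.75) that turned negative with a pseudocount of 0.1.

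Genes of fuel use and proliferation were less even, again without a call for the difference. Cpt1ab, which carries fatty acids into mitochondria, rose by 1.02 in eyes (adjusted p = 0.0255), with 0.14 in brains and a difference of 0.89 (95% interval 0.07 to 1.71, adjusted p = 0.586). The glycolytic regulator pfkfb3 rose by 1.45 in eyes, with 0.79 in brains (adjusted p = 0.0543) and a difference of 0.65 (95% interval 0.05 to 1.25). The pyruvate dehydrogenase kinase pdk2a rose by 0.76 in eyes with 0.38 in brains. The hypoxia gene higd1a rose by 1.93 in eyes and 1.397 in brains. For angptl4, a classic PPAR target, the ratio of mean FPKM was 1.11 in eyes and 1.01 in brains. The proliferation marker mki67 had a difference of -0.42 (95% interval -0.92 to 0.08), with an eye effect of -0.81. The replication factor mcm5 had a difference of -0.62 (95% interval -1.18 to -0.06, adjusted p = 0.575). The green cone opsin opn1mw1 averaged 2005 ± 144 FPKM (SD, n = 4) in DMSO eyes and 1224 ± 278 FPKM (SD, n = 4) in PFNA eyes, an eye effect of -0.73 that was not called (adjusted p = 0.341). That test used the spread pooled over eyes and brains, and the DMSO mean of opn1mw1 in eyes was 783.5 times that in brains.

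Of a set of 28 genes chosen with earlier results of these data known, 19 were tested, 14 were called in eyes, 8 in brains and 1, cish, for the difference. Over all tested genes the shares called were 8.49% in eyes, 2.81% in brains and 0.101% for the difference. The fatty acid binding gene fabp1b.1, a liver and gut marker among them, averaged 7.18 ± 5.18 FPKM (SD, n = 4) in DMSO eyes and 8.41 ± 8.95 FPKM (SD, n = 4) in DMSO brains, and neither its eye effect (adjusted p = 0.0684) nor its brain effect (adjusted p = 0.139) was called.

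The 50 gene lists drew 1606 entries, of which 1508 matched the table and 987 were tested, and 3 lists held a member called for the difference. Over all tested genes the median difference was -0.02, and 47.2% lay above 0. Of all tested genes, 5.38% rose and 3.11% fell in dark eyes, and 2.2% rose and 0.61% fell in dark brains. The counts of called members in each list below are to be read beside these shares. In the AP-1 list, 9 of 11 tested genes rose in dark eyes and 5 in dark brains, and jun was called for the difference. The list's median effect was 1.43 in eyes and 0.90 in brains, with 8 of 11 differences above 0. Its members were not uniform, and those named here besides jun and atf3 were chosen after their values were seen. The subunit gene junba rose by 1.37 in eyes and 1.45 in brains, and fosb by 1.75 and 1.80, which are differences of -0.08 and -0.05. Another subunit gene, junbb, rose by 2.46 in eyes and 1.05 in brains, a difference of 1.41 with an adjusted p of 0.165.

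The STAT3 and Cish/Socs list had 10 of 17 genes higher in eyes and 5 in brains, all 5 shared, with a median difference of 0.25 (0.15 without eye DD PFNA replicate 4, 0.38 without eye DD PFNA replicate 2) and 12 above 0. Of its members, cish was called for the difference. In the list of neuronal activity genes 5 of 19 rose in eyes and 3 in brains, with a median difference of 0.03, and dusp1 was the member called for the difference. The light-induced list had 11 of 14 genes higher in eyes and 6 in brains, all 6 shared, and a median difference of 0.03. The cholesterol synthesis list had 9 of 24 higher in eyes and 6 in brains, with a median difference of 0.16, which was 0.07 without brain DD DMSO replicate 2 and 0.27 without brain DD DMSO replicate 4. In the clock repressor list 6 of 20 rose and 1 fell in eyes and 5 rose in brains, with 5 differences above 0 and a median of -0.14. Small medians were not stable in sign: without eye DD PFNA replicate 4 that of the clock list was 0.06, and with quantile normalization that of the light-induced list was -0.13 and that of the neuronal activity list -0.01.

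Several metabolic lists had medians above 0, and others did not. For PPAR targets in fatty acid oxidation, 10 of 38 rose in eyes and 1 in brains, the median difference was 0.35 and 31 of 38 lay above 0, with a median of 0.05 under LD. The Nrf2 list had 4 of 22 higher in eyes and none called in brains, with a median difference of 0.36. The nuclear genes of oxidative phosphorylation had 6 of 44 higher in eyes, a median difference of 0.29 and 38 above 0. Cytosolic ribosomal protein genes had none called in either tissue, yet 71 of 74 differences lay above 0 and the median was 0.40. The last 2 medians had the other sign under LD, at -0.17 and -0.10, and without eye DD PFNA replicate 4 they were 0.11 and 0.17. In the fatty acid synthesis list 4 of 14 rose in both tissues, the same 4, with a median difference of -0.02 and 5 above 0. The glycolysis and hypoxia list had 7 of 37 higher in eyes and 3 in brains, with 18 differences above 0 and a median of -0.0042.

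Neuronal lists were mixed. Voltage-gated channels had a median difference of -0.24 (7 of 36 above 0), which was -0.09 without eye DD PFNA replicate 4 and 0.01 under LD. For glutamate and GABA receptors it was -0.16 (13 of 43 above 0), with -0.23 without brain DD DMSO replicate 3 and -0.09 without eye DD DMSO replicate 2. Synaptic vesicle and neuronal genes had a median of -0.03 (17 of 39 above 0). Neuropeptides had one of 0.30 (12 of 17 above 0), which was 0.08 without eye DD PFNA replicate 4 and -0.03 under LD. Of the neuropeptide genes, 2 rose in eyes.

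Among proliferation genes, the mitosis list had 6 of 30 lower in eyes and 1 in brains, with a median difference of -0.17, which was -0.22 without brain DD DMSO replicate 2 and -0.09 without brain DD DMSO replicate 1. The DNA replication list had 1 of 30 higher and 1 lower in eyes and 1 higher in brains, counts near the shares over all genes. Its median difference was -0.19, with 7 above 0. In the list of Notch targets and neural progenitors 7 of 25 fell in eyes and 5 in brains, with a median difference of -0.04, which was 0.01 with quantile normalization. The integrated stress response list had 9 of 31 higher in eyes and 7 in brains, and a median difference of -0.01, which was 0.10 without eye DD PFNA replicate 4. The heat shock list had 5 of 22 higher in eyes, 1 lower in eyes and 2 higher in brains. None of these lists had a member called for the difference.

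**Figure D4:**
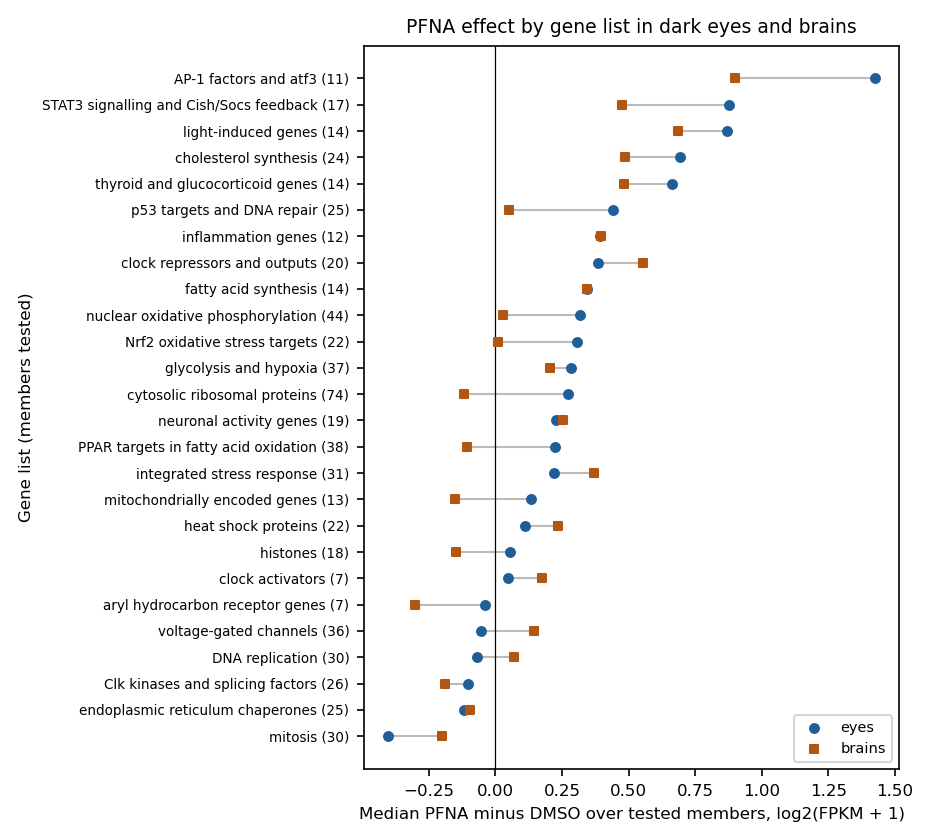
Median PFNA effect of the tested members of each gene list in dark eyes and dark brains, on the log2(FPKM + 1) scale, for pathway lists with the number of tested members in parentheses. The AP-1 list lies at 1.43 in eyes and 0.90 in brains and the light-induced list at 0.87 and 0.69, while ribosomal proteins lie at 0.27 and -0.12.

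Markers of other organs were present in the dissected brains and eyes, and their sums varied between libraries. The 12 tested pancreas and gut genes had a median brain effect of -2.78 and a median difference of 2.11, with 7 lower in PFNA brains. Skin and epithelial markers summed to 50.6 to 774 FPKM in DMSO brains and 91.2 to 429 FPKM in PFNA brains, and all 32 tested members had a difference above 0, with a median of 0.97 and none called. That median was 0.52 without brain DD DMSO replicate 2 and 1.61 without brain DD DMSO replicate 3. Muscle markers summed to 79.6 to 525 FPKM in DMSO brains and 67.5 to 153 FPKM in PFNA brains, with a median difference of 0.54, which was 0.36 without brain DD DMSO replicate 1 and 1.05 without brain DD DMSO replicate 3. Liver markers summed to 1530 FPKM in eye DD PFNA replicate 1 and to 100.7, 77.1 and 142.6 FPKM in the other PFNA eyes, against 83.8 to 217 FPKM in DMSO eyes. The liver list's median difference was 1.57, and 0.77 without that library. Under LD the median differences were 0.21 for pancreas and gut, 0.41 for skin and epithelium, 1.34 for muscle and -0.64 for liver. Cone markers summed to 12910 to 15110 FPKM in DMSO eyes. In PFNA eyes they summed to 10160, 11100 and 11680 FPKM, below every DMSO eye, and to 16450 FPKM in replicate 4. Summed myelin markers were at 234 to 340 FPKM in DMSO brains and 264 to 295 FPKM in PFNA brains. The part of these tissue shares in the list medians was not tested.

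The expression filter hid genes that were nearly silent in the brain, and among them were some of the strongest eye responses. With only 3 brain PFNA libraries, a gene under 1 FPKM in every DMSO brain could not reach 4 columns, and 36 genes at 1 FPKM or more in all 3 PFNA brains were left out that way. A fit of 27741 genes with no filter called 33 (0.119%), which included 14 of the 15 (gbp was not called) and 19 genes that the filter leaves out, 14 of them protein coding. Where the brain is below 1 FPKM the log2(FPKM + 1) scale compresses its change, so these differences partly follow from the low brain level. The difference of a gene expressed in eyes and under 1 FPKM in all brains is mostly its eye effect. It cannot show how the brain responded. The added calls went both ways, and some were brain gains without a called eye change. Protein-coding AL928657.2, named after its values were seen, read 4.78 to 5.25 FPKM in PFNA brains and under 1 FPKM in every other dark library. Its dark difference was -2.60 ± 0.34 (adjusted p = 0.00722). Mean FPKM of AL928657.2 in PFNA brains was 21.9 times that in DMSO brains in darkness and 1.07 times under LD. Called likewise were rRNA genes named RF00001, and BX530018.3 and FP016012.1. In PFNA brains the RF00001 genes read 0.837 to 7.33 FPKM, BX530018.3 read 1.38 to 2.58 FPKM and FP016012.1 read 0.181 to 0.29 FPKM. Both BX530018.3 and FP016012.1 read 0 FPKM in the other dark libraries compared. Their calls therefore lie near the floor and rest on groups without spread.

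The AP-1 subunit gene fosl1a read 0.714, 0.799, 0.331 and 0.85 FPKM in DMSO eyes and 31.97, 33.44, 37.11 and 20.42 FPKM in PFNA eyes. In brains it read 0.588, 0.517, 0.72 and 0.741 FPKM with DMSO and 8.19, 9.82 and 3.71 FPKM with PFNA. Both tissues went from near silence to clear expression, and the eye went further. The fosl1a effect was 4.22 in eyes and 2.24 in brains, and its difference of 1.98 ± 0.36 (95% interval 1.202 to 2.758) had an adjusted p of 0.0596. The cish paralogue cishb read 0.609 to 1.79 FPKM in DMSO eyes and 19.1 to 36.6 FPKM in PFNA eyes, against 0.0605 to 0.724 and 1.73 to 2.68 FPKM in brains. Its difference was 2.34 ± 0.36 (adjusted p = 0.0202), in the same direction as that of cish.

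Hormone and photoreceptor genes were also among those left out. The gene dio2, whose enzyme activates thyroid hormone, read 2.79 to 3.56 FPKM in DMSO eyes and 13.6 to 30.5 FPKM in PFNA eyes. All 7 brain libraries stayed under 1 FPKM, at 0.225 to 0.686 FPKM with DMSO and 0.762 to 0.981 FPKM with PFNA. Ratios of mean dio2 FPKM were 6.41 in eyes and 2.25 in brains. Its difference was 1.86 ± 0.32 (adjusted p = 0.0486). The orphan nuclear receptor gene esrrgb, named after its values were seen, read 2.3 to 3.83 FPKM in DMSO eyes and 20.03 to 25.85 FPKM in PFNA eyes, with a difference of 2.48 ± 0.24 (adjusted p = 0.00058).

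The cone channel subunit gene cnga3b read 23.8 to 33.5 FPKM in DMSO eyes and 68.28 to 113.6 FPKM in PFNA eyes, with all brains under 1 FPKM and a difference of 1.35 ± 0.23 (adjusted p = 0.0428). Its partner cngb3.2 read 30.96 to 33.39 FPKM in DMSO eyes and 9.062 to 11.84 FPKM in PFNA eyes, against 0.074 to 0.309 and 0.0281 to 0.06 FPKM in brains. These 2 subunits of the cyclic nucleotide-gated channel of photoreceptors thus moved in opposite directions in the eye. The cngb3.2 difference of -1.33 ± 0.17 (adjusted p = 0.00521) is on the log2(FPKM + 1) scale. Its mean with PFNA was 0.322 times that with DMSO in eyes and 0.1997 times in brains, so by ratio the brain was the further from its DMSO level, at values under 1 FPKM, and the sign of the difference follows the scale. The gene guca1e, a guanylate cyclase activator of photoreceptors named after its values were seen, had a difference of 1.71 (adjusted p = 0.0125). Its effect was 1.85 in eyes and 0.14 in brains, where all libraries compared read 0.422 FPKM or less. Ratios of mean guca1e FPKM were 4.42 in eyes and 2.24 in brains. Its relative guca1d had a difference of -1.85 ± 0.40 and was not called (adjusted p = 0.119).

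The heat shock gene hsp70l also rose more in the brain, without a call for the difference. It read 0.57 to 1.61 FPKM in DMSO eyes and 1.45 to 3.14 FPKM in PFNA eyes, against 0.141 to 0.342 FPKM in DMSO brains and 5.23, 5.48 and 8.56 FPKM in PFNA brains. The PFNA brains were above all the eyes, and the DMSO brains below them. The hsp70l effect was 0.84 in eyes and 2.56 in brains, and its difference of -1.72 ± 0.32 (95% interval -2.40 to -1.04) had an adjusted p of 0.0611. The fatty acid desaturase gene scd rose by 1.65 in eyes and 2.14 in brains, a difference of -0.49 (95% interval -1.02 to 0.04).

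**Figure D5:**
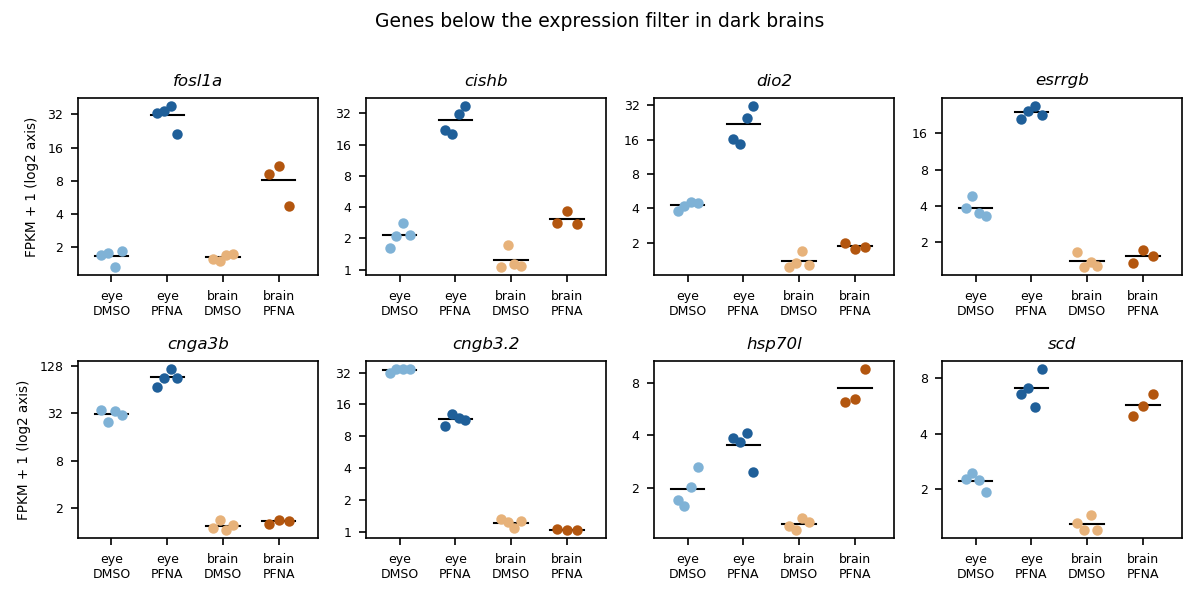
FPKM + 1 on a log2 axis for 8 genes that the expression filter left out, in each dark library by tissue and treatment, with group means as bars. Brain libraries of esrrgb and dio2 stay under 1 FPKM in both groups, and hsp70l in brains rises from 0.141 to 0.342 FPKM up to 5.23 to 8.56 FPKM.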

How the data were processed

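The deposited table gives FPKM for 32520 genes in 32 libraries, computed by the authors, with gene position and length. Per the submitters' processing notes HISAT2 2.0.5 and featureCounts 1.5.0-p3 were used, with no roles given, and the genome build is not given in the sources used here. Per the labels' protocols preparation was directional or non-directional, so overlapping, antisense and paralogous genes are uncertain. The table's 2 pooled columns were not used. The design text names another compound at the same dose, and the labels' PFNA was followed.

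From the FPKM values, limma 3.58.1 in R 4.3.3 (lmFit, eBayes with trend) was run on log2(FPKM + 1) with 1 mean per group and no covariate, for 15 dark libraries, 16 LD libraries and all 31 together. Tests were two-sided with Benjamini-Hochberg adjustment over all tested genes. FPKM times length gave whole fragments for 100% of values within a tolerance of 0.05, and limma's voom was run on these. No pair of replicates agreed within sampling noise. The script was tested on simulated data. Alternatives were another pseudocount, no filter, other scalings, array weights, a replicate block, voom and leaving out libraries.

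The members, gene lists and tests were chosen with earlier results of these data known. Named genes were the 12 largest called differences in each direction with a symbol and a group mean of at least 5 FPKM, up to 2 called members per list, and 28 set genes. Depth was 8.83 to 14.24 M (mega) fragments per dark library.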

Additional observations from a re-analysis of the deposited data

Results flagged for a closer look

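The count of genes called for the eye-brain difference was 15 in darkness and 74 under LD. The 15 dark differences, with the effect in eyes minus that in brains on the log2(FPKM + 1) scale, were 2.57 for cradd, 2.54 for cish, 2.24 for slc25a55a, 2.02 for jun and 2.01 for si_dkey-251i10.2. They were 1.58 for cort, 1.39 for dusp1, 1.37 for gbp, 1.34 for adora2b, 1.32 for zfand5b, 1.26 for slc5a3b and 0.98 for acad9. They were -1.45 for ptpn20, -1.26 for cacna2d4b and -1.22 for opn6b.

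Of 121 groups examined for a sample far from the others, 5 held one, and chance gives about 1 in 20. For cradd, eye LD DMSO replicate 4 read 6.56 FPKM, and for acad9, brain LD DMSO replicate 2 read 14.5 FPKM. Eye DD DMSO replicate 4 held 9.39 M (mega) fragments. The left-out library, brain DD PFNA replicate 3, read 1283 FPKM for rho and 3.77 FPKM for mbpa.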

How the results depend on the processing

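The count of 15 called differences in darkness was 33 with no filter, 9 with a replicate block, 46 with array weights, 1 with brain DD PFNA replicate 3 kept and 110 when all 31 libraries were fitted, and 7 to 23 over the leave-one-out fits. Over the settings other than leave-one-out, the share of these calls that were higher in the eye ran from 47.3% to 100%. The 100% includes the setting with brain DD PFNA replicate 3 kept, which rests on 1 call. The 1265 eye calls became 527 with brain DD PFNA replicate 3 kept and 2223 in the fit of 31 libraries, and 766 to 1641 over the leave-one-out fits (766 without eye DD DMSO replicate 1, 837 without replicate 2 of that group). The 419 brain calls became 1179 with array weights, 973 in the fit of 31 libraries and 872 without eye DD PFNA replicate 4 with the filter redone, and 124 (without brain DD PFNA replicate 2) to 864 (without eye DD PFNA replicate 4) over the leave-one-out fits, with 239 and 249 without brain DD DMSO replicates 1 and 2 and 181 and 209 without brain DD PFNA replicates 1 and 4. The 74 LD calls became 29 with the replicate block and 113 with array weights, and 9 to 70 over the leave-one-out fits. The change of the difference between photoperiods had 0 calls, 3 with no filter, 1 with array weights and 0 to 1 over the leave-one-out fits. The mean of the DD and LD differences, added after the data were seen, had 336 calls, 562 with array weights, 50 with brain DD PFNA replicate 3 kept and 211 to 497 over the leave-one-out fits. Voom called 12 dark differences, 10 of them among the 15, with a median of all genes of -0.10. The calls it lost were those of dusp1, adora2b, acad9, opn6b and si_dkey-251i10.2. The causes were not tested.

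The replicate numbers did not pair the libraries consistently: 6 of 14 same-numbered pairs correlated over 0.1 and 8 of 14 were best with their own number. Of the 7 pairs between eyes and brains, 6 were best with their own number, a hint from the data and not from the design. The block held 9 of the 15 calls and ended those of cort (adjusted p = 0.0513), dusp1, gbp, adora2b, acad9 and opn6b.

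No called difference changed sign. Differences that were never called did. That of ldlra was -0.0577 with a pseudocount of 0.1, -0.11 with voom and -0.177 to 0.202 over the leave-one-out fits. That of per2 was 0.0909 with array weights, 0.148 without eye DD PFNA replicate 4 with the filter redone, and -0.223 to 0.148 over the leave-one-out fits. That of angptl4 was -0.193 with brain DD PFNA replicate 3 kept and -0.0074 to 0.313 over the leave-one-out fits. That of opn1mw1 was 0.802 with a pseudocount of 0.1, 0.949 with voom and -0.478 to 0.713 over the leave-one-out fits. That of fabp1b.1 was -0.769 with array weights, -0.196 without eye DD PFNA replicate 4 with the filter redone, and -0.494 to 0.679 over the leave-one-out fits.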

Other observations

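Averaging the dark and LD differences over 31 libraries, a comparison added after the data were seen and sharing the dark libraries with the results above, called 336 genes (2.25%), 182 higher and 154 lower in the eye. Among the stress genes atf3 had a mean difference of 1.36 (adjusted p = 0.000319), and cebpb, a transcription factor of inflammation, one of 1.41 (adjusted p = 0.00212). In darkness cebpb averaged 4.25 ± 0.87 FPKM (SD, n = 4) in DMSO eyes and 46.95 ± 5.84 FPKM (SD, n = 4) in PFNA eyes, and 4.17 ± 1.41 FPKM (SD, n = 4) and 17.9 ± 5.17 FPKM (SD, n = 3) in brains. The growth factor gene hbegfa had a mean difference of 1.29 (adjusted p = 0.00212). In the STAT3 list 4 of 17 were higher (il6st, cish, socs2 and socs3b). In the list of PPAR targets 4 of 38 were higher (acadm, acadvl, hadhb and pdk4), and in the integrated stress response list 4 of 31 (ddit3, ddit4, trib3 and chac1), against 1.22% of all genes.

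The gene with the lowest mean difference among those named by the same rule was vgf, which encodes a neuropeptide precursor, at -1.47 (adjusted p = 1.95e-05). Dark vgf averaged 39.9 ± 10.3 FPKM (SD, n = 4) in DMSO brains and 90.7 ± 7.89 FPKM (SD, n = 3) in PFNA brains, against 26.4 ± 2.36 and 20.8 ± 6.46 FPKM (SD, n = 4 each) in eyes. The chaperone gene hsp90aa1.2 had a mean difference of -1.42 (adjusted p = 0.000407), with dark eyes at 31.1 ± 2.83 FPKM with DMSO and 16.7 ± 4.91 FPKM with PFNA (SD, n = 4 each). Dark brains averaged 12.8 ± 2.1 FPKM with DMSO (SD, n = 4) and 28.35 ± 16.8 FPKM with PFNA (SD, n = 3), a wide spread. Its dark effect was -0.90 ± 0.27 in eyes and 0.95 ± 0.29 in brains, and neither was called.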
